A study of Mus musculus with 54 samples.

Results

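The p53 target genes examined here are Mdm2, Ccng1, Trp53inp1, Phlda3, Sesn2, Zmat3 and Eda2r, along with Trp53, the gene of p53 itself. They were found by name in the deposited count table, which held all 8 among its 23154 genes. The study followed the differentiation of transplanted mouse haematopoietic stem cells by single-cell RNA sequencing of mRNA 3' ends, with a modified Smart-seq2 protocol. The 54 libraries came from C57BL/6 mice aged 8-10 weeks, and 2301 cells carried the authors' annotation. Of these, 1270 were steady state cells from 28 sorted populations and 1031 were cells collected after transplantation.

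The transplanted cells were recovered from bone marrow, spleen or both, 1, 3, 5 or 7 days after transplantation, and each carried the authors' predicted type (tHSC, tMPP1 to tMPP5, tCP, tGM, tME or tLym with subtypes). The number of animals, the donor cells and the conditioning of the hosts are not given in the sources used here. The reference for the transplanted cells was the steady state stem cell gates LT_HSC, Fraction I, Fraction III, ESLAM and ESLAMSK, together called iHSC below, from C57BL/6 mice of the same age range. A level is given as CPM, the summed counts of all cells of a group in a library scaled to a total of 1000000, and the library was the replicate. Sums of at least 5 cells gave 3, 3, 7 and 10 libraries for days 1, 3, 5 and 7 and 12 libraries for iHSC. Because cells were summed, fewer cells of a type and less RNA per cell cannot be told apart in any level given here.

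p53 is a transcription factor that is stabilised by DNA damage and other stress, and it switches on genes for cell cycle arrest, DNA repair, metabolism and cell death. Its level is held down by Mdm2, a ubiquitin ligase that is itself a p53 target, so that the pathway contains a negative feedback loop. In haematopoietic stem cells p53 is known as a regulator of quiescence and of the response to irradiation and transplantation stress.

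Library totals ran from 745742 to 30433157 counts, and annotated cells held 20013 to 1943315 counts with a median of 203971. Library L87, a day 1 bone marrow library of 13 cells, stood apart, with a median of 1885 genes per cell, summed HSC markers at 0 CPM and summed neutrophil markers at 137500 CPM. Of its cells 38.5% were predicted as tLym and none as tMPP1 or tMPP2. Its B cell markers summed to 1384 CPM, above the iHSC range of 38.4 to 878 CPM. All 3 day 1 libraries carried tissue macrophage markers at 339 to 796 CPM, above the 0.599 to 101 CPM of iHSC, with 4 of 10 called higher and none at 0. Monocyte markers summed to 554 to 1156 CPM there (1 of 6 called higher), inside the iHSC range of 9.27 to 3522 CPM but above its median of 42.8 CPM. Neutrophil markers summed to 2436 CPM or more on day 1 (1 of 8 called higher), against 1.62 to 26680 CPM with a median of 284 CPM in iHSC. Only L87 lay above that range. On day 5, 4 of 10 macrophage markers were called higher, with sums of 5.43 to 1462 CPM. The highest sum was that of L66, a library of 8 cells, and the day 5 median of 23.3 CPM lay below the 39.8 CPM of iHSC. There 2 of 5 tested B cell markers were called lower (14.8 to 33.6 CPM against 38.4 to 878 CPM). The part of these cells in the changes by day was not tested. Days 1 and 3 were sequenced in libraries numbered L79 to L89 and days 5 and 7 mostly in L47 to L72, so day and library number cannot be told apart. The HSC marker list summed to 423 to 1567 CPM in the 12 iHSC libraries, and, for days 1, 3, 5 and 7, to 0 to 763, 442 to 724, 239 to 388 and 30.6 to 213 CPM. Libraries L4 and L49 carry labels that name other populations than the annotation does, and L49 and L55 hold cells of both origins.

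The 8 genes did not move together after transplantation. In the edgeR fit Phlda3 rose on day 1 against iHSC and Trp53inp1 fell on day 5 and over the 4 days averaged, while Trp53 itself was called on no day. The Phlda3 call and the day 5 call of Trp53inp1 were lost under several other settings, given beside them. For the Trp53inp1 call over the 4 days averaged, other settings are not given here. Ccng1 had its highest mean level on day 1, where no library overlapped with days 3, 5 and 7. For this and the other gaps between libraries given below, the share of all genes with such a gap was not counted. No adjusted p of Ccng1 by day passed the threshold with edgeR on the deposited counts, 3 other settings called day 7 against day 1, and the gap between libraries rested in part on single cells. Sesn2 was detected in 8 of 61 day 1 cells against 4 of 305 iHSC cells, and its level on day 1 missed the threshold. Between transplanted cells of all days together and steady state cells, within tMPP1 and within tMPP2, none of the 6 members tested passed the threshold. Of the day 1 libraries only L84 entered these 2 comparisons, so they say little on day 1.

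Promoter windows of RefSeq (build GRCm38.p6, 250 bases before to 50 after the gene start) were matched for 6 of the 8 genes, all but Trp53inp1 and Zmat3. They were searched on both strands for the p53 half-site, the 10-letter sequence that p53 binds in pairs. One half-site each was found in the windows of Mdm2, Ccng1 and Trp53, and none in those of Phlda3, Sesn2 and Eda2r. The half-site starts 186 bases before the gene start in Mdm2, 185 in Ccng1 and 75 in Trp53. It occurs in 2745 of all 32851 windows (8.36%), and 24 windows (0.0731%) hold 2 half-sites 0 to 13 bases apart, none of them a member's. The 3 promoters that hold a half-site are shown because they belong to the factor, its inhibitor and Ccng1, with the half-site in capitals and only the 250 bases before the start. They lie at chr10:117710759-117711008 on the minus strand for Mdm2, chr11:40755287-40755536 on the minus strand for Ccng1 and chr11:69580109-69580358 on the plus strand for Trp53, each directly before the gene start of RefSeq. The Ccng1 stretch shares its last 25 bases with the gene as GENCODE M21 annotates it, and those of Mdm2 and Trp53 share none.
Mdm2: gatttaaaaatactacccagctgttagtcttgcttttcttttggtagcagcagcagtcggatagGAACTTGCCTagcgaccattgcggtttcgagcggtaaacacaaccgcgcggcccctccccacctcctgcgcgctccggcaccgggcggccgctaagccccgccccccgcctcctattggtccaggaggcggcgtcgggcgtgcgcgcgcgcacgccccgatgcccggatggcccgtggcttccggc
Ccng1: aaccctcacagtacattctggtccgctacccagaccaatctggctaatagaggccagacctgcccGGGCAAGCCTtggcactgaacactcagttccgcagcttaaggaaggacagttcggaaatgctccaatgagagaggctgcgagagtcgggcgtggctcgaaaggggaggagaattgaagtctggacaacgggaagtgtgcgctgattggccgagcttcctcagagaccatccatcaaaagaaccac
Trp53: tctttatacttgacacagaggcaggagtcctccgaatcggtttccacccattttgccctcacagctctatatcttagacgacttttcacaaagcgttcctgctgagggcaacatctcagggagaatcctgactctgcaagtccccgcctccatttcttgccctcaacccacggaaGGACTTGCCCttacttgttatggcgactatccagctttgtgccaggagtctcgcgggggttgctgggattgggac
A match is a description of these letters and was not tied to binding here. In the GENCODE M21 annotation of GRCm38 all 8 are protein-coding genes. Only Sesn2, on chromosome 4 from 132492032 to 132510501 on the minus strand, overlaps another gene, Gm12981, which lies on the same strand, is of the GENCODE type antisense and is not in the count table.

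Trp53, the transcription factor, was measured at 149.9 CPM in L83, 257.4 CPM in L84 and 110.0 CPM in L87 on day 1. Day 3 gave 221 CPM in L79, 149 CPM in L85 and 206 CPM in L89. The day 5 libraries ran from 86.2 to 297 CPM with a median of 170.1 CPM, the day 7 libraries from 108 to 195 CPM, and iHSC from 34.5 to 245 CPM with a median of 146 CPM. All groups overlapped, and only 2 transplanted libraries (L84 and L86) lay above the highest iHSC library. For days 1, 3, 5 and 7 the log2 changes against iHSC were 0.11 ± 0.37 (SE), 0.28 ± 0.37, 0.16 ± 0.27 and 0.21 ± 0.25, with adjusted p-values from edgeR's quasi-likelihood test of 0.921, 0.887, 0.782 and 0.591. The sign turned with iHSC libraries labelled bone marrow alone on day 5 (log2 -0.21) and day 7 (-0.15), and on day 1 without L84 (-0.30). Trp53 was detected, with at least 1 count, in 63.5% ± 35.5 (SD, n = 3) of cells on day 1 and 87.9% ± 14.4 (n = 3) on day 3. Detection was 95.4% ± 4.09 (n = 7) on day 5, 91.8% on day 7 and 83.2% ± 15.8 (n = 12) in iHSC. After thinning every cell to 20000 counts these shares were 50.7%, 79.8%, 79.3%, 71.2% and 62.6%. The low day 1 share rests on L87, where 23.1% of cells held a Trp53 count, against 77.8% in L83 and 89.7% in L84.

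Mdm2, the ligase that degrades p53, stood at 69.4 CPM in L83, 43.4 CPM in L84 and 219 CPM in L87 on day 1. Day 3 gave 38.7 CPM in L79, 60.5 CPM in L85 and 26.7 CPM in L89, against 14 to 141 CPM with a median of 67.0 CPM in iHSC. L87 alone lay above the iHSC range. The day 5 libraries ran from 35.2 to 71 CPM and the day 7 libraries from 23.6 to 75.1 CPM, all inside the iHSC range. For days 1, 3, 5 and 7 the log2 changes against iHSC were 0.53 ± 0.48 (SE), -0.95 ± 0.53, -0.47 ± 0.37 and -0.56 ± 0.33, with edgeR adjusted p-values of 0.597, 0.566, 0.488 and 0.236. The day 1 value turned to -0.58 without L87 and to -0.76 with tHSC and tMPP cells alone. Mdm2 was detected in 52.4% of cells on day 1 and 84.6% on day 5, against 63.5% in iHSC, and in 40.2%, 49.6% and 38.6% of cells after thinning.

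Ccng1, which encodes cyclin G1, a regulator that acts with protein phosphatase 2A on Mdm2, was measured at 168.5 CPM in L83, 99.2 CPM in L84 and 114.0 CPM in L87 on day 1. On day 3 it was at 29.2 CPM in L79, 34.0 CPM in L85 and 64.7 CPM in L89. Day 5 libraries ran from 5.56 to 60.8 CPM (median 33.9 CPM), day 7 libraries from 3.25 to 54.5 CPM (median 44.2 CPM) and iHSC from 24.2 to 138 CPM (median 60.2 CPM). Every day 1 library was thus above every library of days 3, 5 and 7, and 1 of them, L83, was above the whole iHSC range. The log2 change of day 1 against iHSC was 0.79 ± 0.52 (SE, edgeR adjusted p = 0.459). Against day 1 it was -1.58 ± 0.71 on day 3 (adjusted p = 0.916) and -1.43 ± 0.52 on day 7 (adjusted p = 0.148). The day 7 difference passed the threshold with DESeq2 (log2 -1.74, adjusted p = 0.0446), with cells thinned to 20000 counts (log2 -1.75, adjusted p = 0.0424) and with limma on mean log values (adjusted p = 0.0199). DESeq2 alone called Ccng1 lower on day 5 against iHSC (log2 -1.08, adjusted p = 0.0428). As deposited, Ccng1 was detected in 62.1% of day 1 cells, and in 59.7%, 64.7% and 75.0% of those from days 3, 5 and 7, against 59.9% in iHSC. After thinning it was detected in 54.1% ± 23.5 (SD, n = 3) of day 1 cells, with 30.8% in L87. Thinned shares for days 3, 5 and 7 were 27.4%, 31.6% and 35.3%, against 36.8% in iHSC. In L83, 1 tMPP2 cell held 135 of the 199 Ccng1 counts. Without the cell that held most counts in each, the day 1 libraries stood at 62.5 CPM in L83, 86.8 CPM in L84 and 70.4 CPM in L87. L83 then lay inside the iHSC range and below the 64.7 CPM of L89 on day 3. That tMPP2 cell of L83 was also the one with most Phlda3 (51 counts), Sesn2 (34 counts) and Zmat3 (44 counts) in its library, and it held 109 counts of Cdkn1a, the p21 gene, but 3 of Mdm2 and 3 of Trp53. In L84, 181 of the 491 Ccng1 counts came from tMPP1 and 132 from tMPP2 cells. The 85 counts of L87 came from other types, with 40 in tGM1, 34 in tLym3 and 11 in tCP3 cells.

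**Figure D1:**
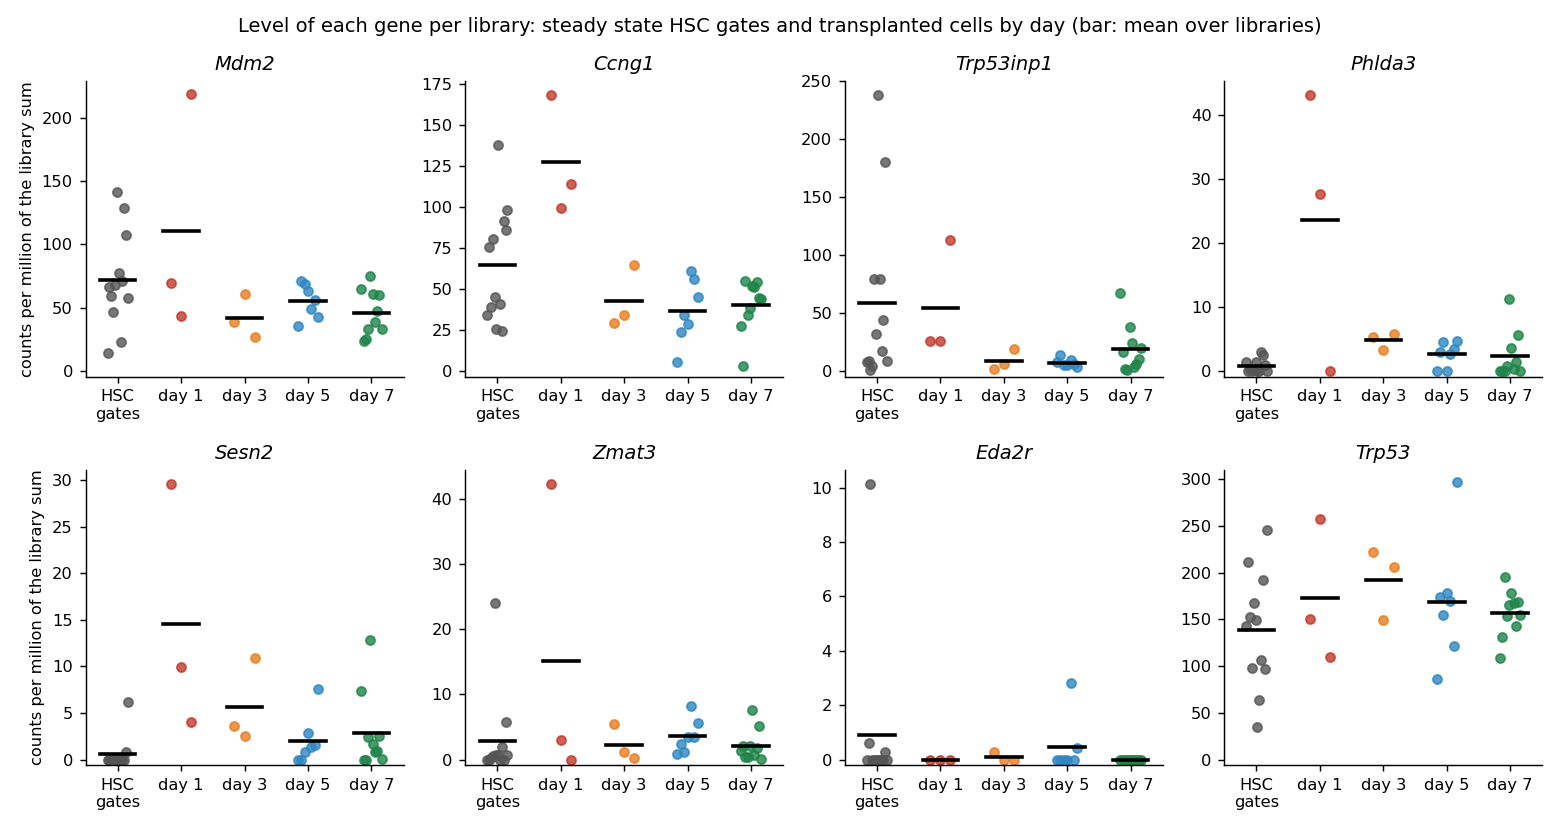
Level of each gene in every library sum (CPM, y axis) in the iHSC gates and on days 1, 3, 5 and 7 after transplantation (x axis); points are libraries and black bars their means. The 3 day 1 libraries of Ccng1 lie between 99.2 and 168.5 CPM, above all later libraries, while Trp53 overlaps in all groups.

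Trp53inp1, a target whose product promotes p53 phosphorylation, autophagy and cell death, was at 25.4 CPM in L83, 25.5 CPM in L84 and 113 CPM in L87 on day 1. On day 3 it was at 1.68 CPM in L79, 6.26 CPM in L85 and 18.9 CPM in L89. The day 5 libraries ran from 3.40 to 13.6 CPM with a median of 5.60 CPM, against 0.846 to 238 CPM with a median of 24.2 CPM in iHSC. The day 5 libraries lay at the low end of a wide iHSC range that they did not leave. Within iHSC, Fraction III had a mean of 176 CPM, against 26.1 CPM in LT_HSC, 23.6 CPM in ESLAMSK, 22.8 CPM in Fraction I and 9.29 CPM in ESLAM. The log2 change on day 5 was -3.10 ± 0.86 (SE, edgeR adjusted p = 0.0193), and Trp53inp1 was the only one of the 7 members tested to pass there, where 7.57% of all genes did and 3.29% were called lower. Averaged over the 4 days it was -1.91 ± 0.59 (adjusted p = 0.0230), again the only member called, against 15.4% of all genes called and 9.82% called lower. The day 3 value was -2.86 ± 1.23 (adjusted p = 0.389) and the day 1 value -0.16 ± 1.02 (adjusted p = 0.962). Neither day had this gene called. The day 5 call was lost with voom and a library block (log2 -1.87, adjusted p = 0.102), with at least 10 cells per sum (-2.41, 0.0717), with thinned cells (-1.94, 0.0814), with limma on mean log values (0.194) and with bone marrow iHSC libraries alone (-2.47, 0.0758).

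On day 7 Trp53inp1 was uneven between libraries, from 1.02 CPM to 67.2 CPM with a median of 13.6 CPM. The 4 highest, L47 at 67.2 CPM, L59 at 38.2 CPM, L60 at 24.2 CPM and L78 at 20.2 CPM, each held tGM cells, at 14.9%, 43.6%, 19.6% and 8.33% of their cells, but so did the lowest, L58, at 13.5%. The log2 change against iHSC was -1.51 ± 0.69 (edgeR adjusted p = 0.112), and no member was called on day 7 although 20.8% of all genes were. With tHSC and tMPP cells alone it was -3.04 (adjusted p = 0.00128), and without L47 it was -1.98 (adjusted p = 0.0423). Thinned cells held the gene at a share of 25.4% for day 1 and of 8.27%, 13.5% and 13.9% for days 3, 5 and 7, against 18.3% in iHSC.

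Phlda3, which encodes a pleckstrin-homology protein that competes with Akt for membrane lipids, was at 43.2 CPM in L83, 27.7 CPM in L84 and 0 CPM in L87 on day 1. The 12 iHSC libraries ran from 0 to 2.998 CPM, with counts in 7 of them. L83 and L84 lay far above that range and L87 did not. The log2 change on day 1 was 4.57 ± 1.31 (SE, edgeR adjusted p = 0.0409), and it was the only one of the 7 tested members called on day 1, where 3.14% of all genes were called and 2.34% were called higher. The 51 counts of L83 came from the 1 tMPP2 cell described for Ccng1, while the 137 counts of L84 came from 13 cells, of which 4 tMPP1 cells held 73. Of all 61 day 1 cells, 14 held a Phlda3 count. The call was lost without L83 (log2 3.84, adjusted p = 0.211) and without L84 (4.39, 0.0769), with DESeq2 (4.59, 0.0509), with voom and a library block (3.84, 0.199), with at least 10 cells per sum (3.66, 0.163), without libraries of both origins (0.0516) and with bone marrow iHSC libraries alone (0.122). On day 3 the libraries were at 5.33 CPM in L79, 3.21 CPM in L85 and 5.78 CPM in L89. These do not overlap with iHSC, but the log2 change of 2.33 ± 1.34 was not called (adjusted p = 0.595), as for all members on day 3, where 1.12% of all genes were called. Day 5 and day 7 changes were 1.54 (adjusted p = 0.434) and 1.55 (adjusted p = 0.295).

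Sesn2, a sestrin that restrains mTORC1 signalling and takes part in the antioxidant response, was at 29.6 CPM in L83, 9.90 CPM in L84 and 4.02 CPM in L87 on day 1. On day 3 it was at 3.56 CPM in L79, 2.54 CPM in L85 and 10.9 CPM in L89. Of the 12 iHSC libraries 10 were at 0, and the other two were at 0.85 CPM in L76 and 6.16 CPM in L81. All 6 early libraries held counts, and L83, L84 and L89 lay above the highest iHSC library. In L87 these were 3 counts in 2 cells, and in L85 all 15 counts came from 1 cell. Without the cell that held most counts in each, L83, L84 and L89 stood at 0.98, 3.13 and 3.81 CPM, inside the iHSC range. For days 1, 3, 5 and 7 the log2 changes against iHSC were 4.40 ± 1.40 (SE), 3.08 ± 1.40, 1.69 ± 1.17 and 2.41 ± 1.11, with edgeR adjusted p-values of 0.0751, 0.436, 0.418 and 0.117. Averaged over the days it was 2.89 ± 1.06 (0.0560), and it passed without L55, L66, L68 or L78 (0.0475 to 0.0495). With every cell thinned to 20000 counts the change was called on day 1 (5.24, adjusted p = 0.00119), day 3 (4.47, 0.00566) and day 7 (3.03, 0.00645) and over the days averaged (3.52, 0.00155), and voom with a library block called day 1 (5.03, 0.0340). Sesn2 was detected in 15.95% ± 6.00 (SD, n = 3) of day 1 cells and 9.46% ± 6.33 (n = 3) of day 3 cells. Shares of 4.78% ± 4.71 (n = 7) and 5.18% followed for days 5 and 7, against 0.581% ± 1.42 (n = 12) in iHSC. Thinned shares were 11.4%, 6.43%, 1.85%, 2.20% and 0.476%. Few cells carry the day 1 level, since 34 of the 35 counts in L83 came from 1 tMPP2 cell and 42 counts in L84 from 2 tMPP1 cells. On day 7 the change was -0.03 with tHSC and tMPP cells alone.

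**Figure D2:**
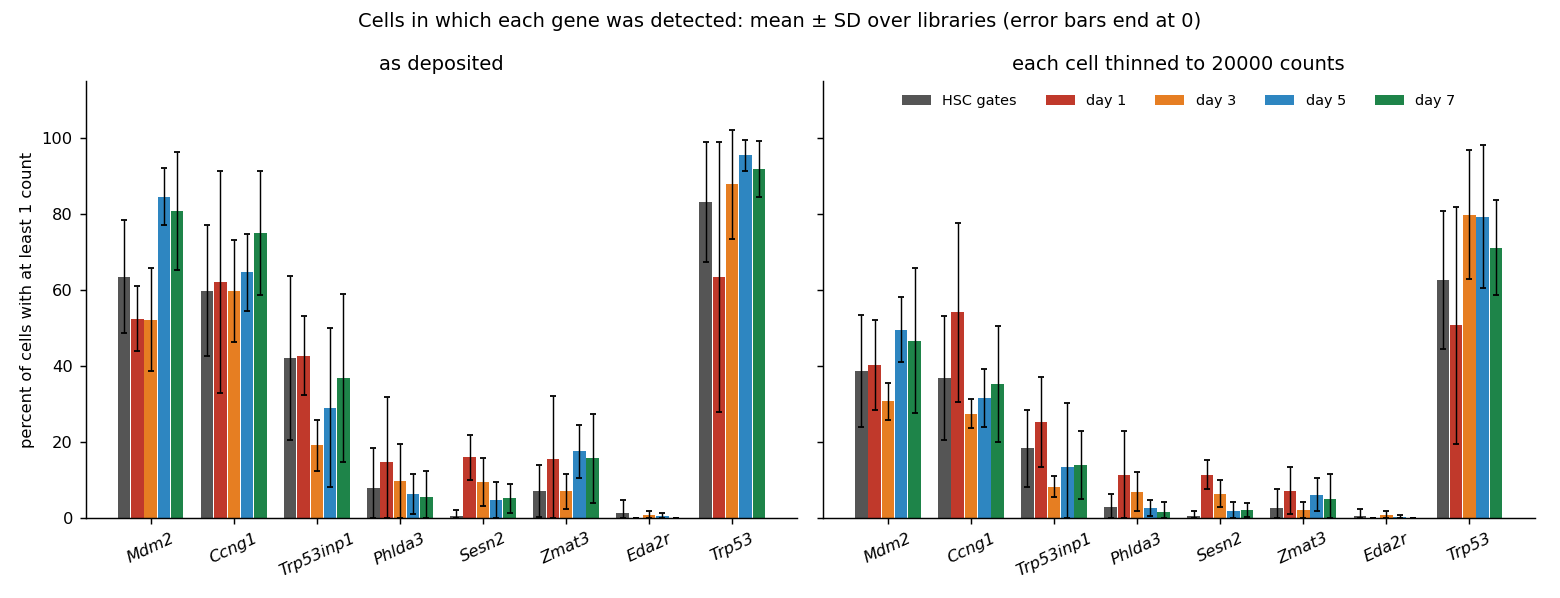
Percent of cells with at least 1 count of each gene, as deposited and after thinning each cell to 20000 counts, in the iHSC gates and on each day; columns are means over libraries and error bars their SD. Sesn2 stands at 0.581% of iHSC cells and 15.95% of day 1 cells as deposited, and at 0.476% and 11.4% after thinning.

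Zmat3, an RNA-binding zinc finger protein that acts on splicing, was at 42.3 CPM in L83, 3.03 CPM in L84 and 0 CPM in L87 on day 1, against 0 to 24.0 CPM in iHSC. L83 alone was above the iHSC range, and 1 tMPP2 cell there held 67.7% of all day 1 counts of the gene. The log2 change on day 1 was 2.20 ± 1.26 (edgeR adjusted p = 0.386), and it turned to -0.92 without L83. Eda2r, a receptor of the tumour necrosis factor family, was found in 18 of the 2301 annotated cells with 160 counts in all, and did not pass the filter on low counts of the edgeR fit in any comparison. None of 61 cells on day 1 held a count, which allows a share of up to 4.92% of cells with a count, and none of 389 on day 7, which allows up to 0.771%. These limits cover counting error only, over cells pooled from libraries. In iHSC 3 of 305 cells in 3 libraries held 39 counts, 36 of them in 1 cell. Settings that let Eda2r into the fit called it lower on day 7 with no filter (adjusted p = 0.00613), with at least 10 cells per sum (0.0152) and with tHSC and tMPP cells alone (0.00714). Over the days averaged it was called with no filter (0.0252), with tHSC and tMPP cells alone (0.0487) and without L79 (0.0347).

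Between consecutive days no member passed the test. For day 3 against day 1 no gene of the table was called (0.00%) with edgeR, although 693 had an unadjusted p under 0.05, 2 of them members (Mdm2 and Ccng1). DESeq2 called 25 genes there. On day 5 against day 3 the share was also 0.00%, with 347 genes at an unadjusted p under 0.05 and no member among them, and DESeq2 called 19 genes. On day 7 against day 5 0.404% of all genes were called and no member. On day 7 against day 1 2.04% of all genes were called and no member, with Mdm2 at -1.09 ± 0.48 (adjusted p = 0.253) and Phlda3 at -3.02 ± 1.36 (adjusted p = 0.270). Without L87 the Mdm2 value was 0.03. The comparisons against iHSC share the same 12 control libraries.

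**Figure D3:**
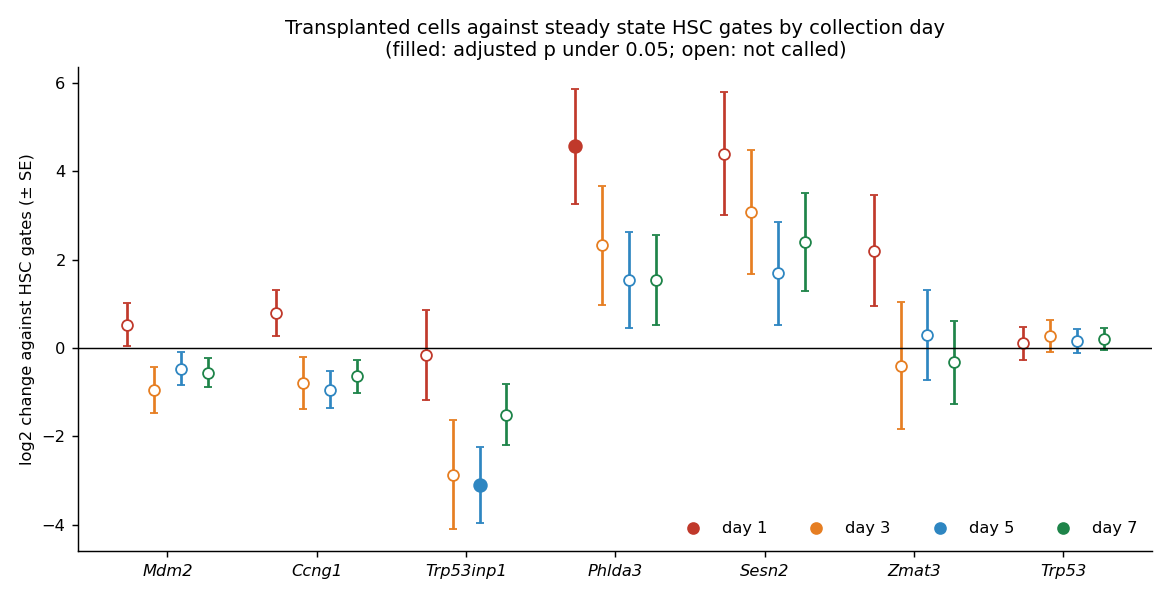
Log2 change against iHSC from the edgeR fit for the 7 members tested, on days 1, 3, 5 and 7; points are estimates, bars are standard errors and filled points passed an adjusted p of 0.05. Phlda3 on day 1 (4.57) and Trp53inp1 on day 5 (-3.10) are the filled points, and Trp53 lies between 0.11 and 0.28.

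By predicted type on day 7, Trp53 was lowest in tGM1, the granulocyte-monocyte type, at 8.30 CPM in L47, 11.9 CPM in L59, 4.72 CPM in L60 and 3.40 CPM in L62. In the type labelled tME1 it was at 2.07 CPM in L47, 22.7 CPM in L59 and 11.8 CPM in L60. Every tMPP sum of day 7 lay between 96.0 and 317 CPM, so neither type overlapped with the multipotent progenitor types. Means were 7.08 ± 3.82 CPM (SD, n = 4) for tGM1 and 12.2 ± 10.3 (n = 3) for tME1, against 185 ± 40.2 (n = 5) for tMPP2, 150 ± 19.6 (n = 4) for tMPP3 and 218 ± 73.7 (n = 4) for tMPP5. Trp53 was still detected in 60.7% of tGM1 cells as deposited, but in 7.74% after thinning, against 83.1% to 93.1% in tMPP2, tMPP3 and tMPP5. The difference between types was not tested.

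Trp53inp1 had the opposite order. It was at 333 CPM in L47, 80.2 CPM in L59, 114 CPM in L60 and 51.1 CPM in L62 in tGM1, and at 171, 112 and 105 CPM in the tME1 cells of L47, L59 and L60. The tMPP sums of day 7 ran from 0 to 30.9 CPM. Sesn2 stood at 13.3 ± 13.7 CPM (SD, n = 4) in tGM1 and 18.6 ± 32.2 (n = 3) in tME1, but 133 of the 169 counts in the tGM1 cells of L59 and 52 of the 54 in the tME1 cells of L47 were each in 1 cell. Mdm2 overlapped between the types, with 75.7 ± 35.0 CPM (n = 4) in tGM1 and 40.6 ± 19.9 (n = 5) in tMPP2. By its markers tME1 on day 7 was not set apart from tGM1. Its neutrophil markers summed to 109750 to 155020 CPM, as in tGM1 (88891 to 145810 CPM). Its erythroid markers summed to 1.03 to 48.2 CPM and its megakaryocyte markers to 12.7 to 126 CPM. The sorted megakaryocyte and erythroid class at steady state also carried neutrophil markers, at 48790 to 222500 CPM. Its erythroid markers summed to 0 to 5572 CPM (median 2207 CPM), with 3 of 8 at 0, and its megakaryocyte markers to 32.8 to 1377 CPM. All 3 ranges overlap with those of tME1, so these sums do not settle its label.

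**Figure D4:**
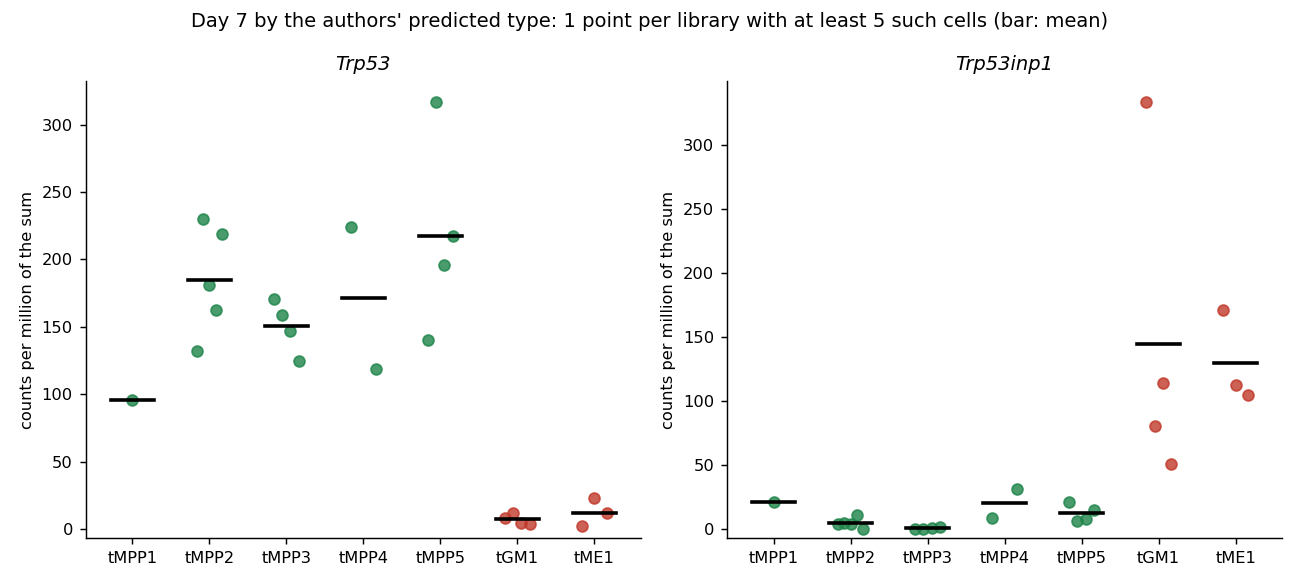
Level of Trp53 and Trp53inp1 (CPM, y axis) in each predicted type on day 7 (x axis), for sums of at least 5 cells; points are libraries and black bars their means. tGM1 and tME1 lie at 22.7 CPM or less for Trp53 and at 51.1 CPM or more for Trp53inp1, while the tMPP types lie at 96.0 to 317 CPM and 0 to 30.9 CPM.

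On earlier days the types that could be summed were mostly tMPP1, tMPP2 and tMPP5. Trp53 in tMPP2 was at 265 CPM in the day 1 library L84, and at 202 ± 30.9 CPM (SD, n = 3), 189 ± 66.7 (n = 6) and 185 ± 40.2 (n = 5) in the libraries of days 3, 5 and 7. In tMPP1 it was at 268 CPM in L84, and at 154 ± 50.7 (n = 3) and 156 ± 50.3 (n = 6) for days 3 and 5. Among small sums, 2 stood low, at 13.6 CPM in 6 tHSC1 cells of L85 on day 3 and at 22.6 CPM in 5 tMPP3 cells of L66 on day 5. Ccng1 in tMPP2 was at 88.3 CPM in L84 on day 1 and at 39.8 ± 18.1 (n = 3), 43.8 ± 14.1 (n = 6) and 41.3 ± 12.8 (n = 5) for days 3, 5 and 7, and day 1 has a single library here. Phlda3 in day 1 tMPP1 cells of L84 was at 41.6 CPM, against 8.86 ± 2.05 CPM (n = 3) on day 3 and 3.46 ± 7.97 (n = 6) on day 5.

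Transplanted and steady state cells were also compared within a predicted type, with the transplanted sums of all days together. Of the day 1 libraries only L84 held at least 5 cells of tMPP1 or of tMPP2. Within tMPP1 (13 transplanted and 5 steady state sums) none of 6 tested members was called, against 0.494% of all genes. Trp53 was at 169.9 ± 58.4 CPM (SD, n = 13) in transplanted and 182 ± 45.5 (n = 5) in steady state cells, a log2 change of -0.14 ± 0.26 (SE, edgeR adjusted p = 0.932). Within tMPP2 (18 and 8 sums) none of 6 was called either, against 0.707% of all genes, and Trp53 changed by -0.20 ± 0.17 (adjusted p = 0.742). Phlda3 within tMPP2 was at 2.14 ± 2.99 CPM (n = 18) in transplanted and 13.1 ± 26.8 (n = 8) in steady state cells. The medians lay closer together, at 1.62 and 4.18 CPM. The log2 change was -2.54 ± 0.93 (edgeR adjusted p = 0.232), of the opposite sign to that of day 1 against iHSC. The comparisons differ in days and in reference, since the one within tMPP2 pools all days and compares with steady state tMPP2 cells. Within tMPP2, day 7 against day 5 called 0.342% of all genes and none of the 6 members tested, with Trp53 at 0.07 ± 0.24 (adjusted p = 0.954). Sesn2 and Eda2r were too low to be tested within these types.

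At steady state Trp53 was highest in several progenitor gates and lowest in mature myeloid, erythroid and megakaryocytic cells. The highest means were ST_HSC at 284 ± 38.4 CPM (SD, n = 2), CMP at 276 CPM in 1 library and MPP4 at 255 ± 16.5 (n = 3), and these do not differ from HPC3 at 248 ± 2.73 (n = 3) beyond their spread. The stem cell gates ran from LT_HSC at 202 ± 13.6 (n = 2) to Fraction III at 104 ± 93.8 (n = 5). The progenitor gates MPP3, Fraction II, MPP2, GMP and CLP, at 185 to 135 CPM, lay among them and below LT_HSC. The lowest were granulocytes at 44.4 ± 30.5 (n = 2), macrophages at 25.7 CPM in 1 library and megakaryocytes (MK) at 23.6 ± 15.6 (n = 2). By class, the log2 change of the multipotent progenitor gates against the stem cell gates was 0.75 ± 0.25 (SE, edgeR adjusted p = 0.0510), with means of 233 ± 42.5 CPM (SD, n = 17) and 138 ± 61.5 (n = 12). That change was called with voom and a library block (adjusted p = 0.00787), with thinned cells (0.0218) and with no filter (0.0453). In megakaryocyte and erythroid cells it was -1.07 ± 0.37 (edgeR adjusted p = 0.0305), from 51.1 CPM in L16, 12.6 CPM in L28, 44.3 CPM in L4, 59.3 CPM in L42 and 34.6 CPM in L55. Of the 12 stem cell libraries only L54, at 34.5 CPM, overlapped with these.

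Ccng1 fell in the same class, at 37.5 CPM in L16, 3.16 CPM in L28, 1.97 CPM in L4, 22.2 CPM in L42 and 8.31 CPM in L55, against 24.2 to 138 CPM in the stem cell gates. L16 overlapped with the stem cell gates and the other four did not. The log2 change was -1.43 ± 0.49 (SE, edgeR adjusted p = 0.0296), so 2 of 7 tested members were called in this class, where 23.8% of all genes were called and 10.1% called lower. The Ccng1 call was lost with voom and a library block (adjusted p = 0.330), with at least 10 cells per sum (0.137), without L4 and L49 (0.120), and without L28 (0.0824), L4 (0.0972) or L55 (0.0783) alone. The Trp53 call was lost with voom and a library block (0.334), without L28 (0.0889) and without L55 (0.0755). The megakaryocyte and erythroid sums also carried neutrophil markers at 48790 to 222500 CPM, against 1.62 to 26680 CPM in the stem cell gates, with all 8 neutrophil markers called higher. Their part in these results was not tested.

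Trp53inp1 was highest in Fraction III, with 4.31 CPM in L49, 270 CPM in L50, 238 CPM in L54, 79.2 CPM in L55 and 289 CPM in L76, followed by CLP at 134 ± 82.2 (SD, n = 2). The lowest gates were LMPP at 2.40 ± 1.43 (n = 2) and MEP at 1.89 CPM in 1 library. Multipotent progenitor gates ran below the stem cell gates, with means of 13.8 ± 19.0 CPM (n = 17) and 58.3 ± 76.6 (n = 12). By gate the order is mixed, since Fraction II at 43.6 CPM and MPP4 at 32.7 CPM, both progenitor gates, had higher means than all stem cell gates other than Fraction III. The log2 change was -2.09 ± 0.65 (SE, edgeR adjusted p = 0.0330), the only call among 7 members in a comparison that called 8.49% of all genes and 4.11% lower. The call was lost with voom and a library block (adjusted p = 0.0715), with at least 10 cells per sum (0.110) and with thinned cells (0.147).

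Phlda3 at steady state was highest in CLP at 15.3 ± 9.58 CPM (SD, n = 2), LMPP at 14 ± 4.82 (n = 2) and Fraction II at 13.6 ± 19.2 (n = 2), which overlap, and it had no count in 7 of the 28 populations. Committed progenitors were at 6.45 CPM in L15, 4.57 CPM in L17, 22.1 CPM in L28 and 8.56 CPM in L43, all above the highest stem cell library at 2.998 CPM. The log2 change was 3.86 ± 1.22 (SE, edgeR adjusted p = 0.0463), the only one of 7 members called there, against 6.02% of all genes called and 4.20% called higher. The call was lost with edgeR's RLE scaling (adjusted p = 0.0691), with DESeq2, without a filter, with at least 10 cells per sum, without L4 and L49, and without any 1 of the 4 committed progenitor libraries. In the multipotent progenitor gates Phlda3 was at 5.93 ± 7.79 CPM (SD, n = 17), against 0.804 ± 1.05 (n = 12) in the stem cell gates, a log2 change of 2.80 ± 0.98 (SE) that missed the threshold (edgeR adjusted p = 0.0626). Most cells of L83 and L84 on day 1 carried a predicted tMPP type, as did most cells of every library of days 3 and 5. In steady state cells Phlda3 was at 3.88 ± 3.18 CPM (SD, n = 5) in tMPP1 and 13.1 ± 26.8 (n = 8) in tMPP2. The medians were 4.29 and 4.18 CPM. The part of cell type in the day 1 level of Phlda3 was not tested. Myeloid cells called 11.8% of all genes and lymphocytes 15.2%, with no member among them.

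The other members had scattered steady state levels. Mdm2 was highest in B cells at 188 ± 187 CPM (SD, n = 2), where 1 cell held 404 of the 803 counts of L54. Below them came Fraction I at 101 ± 41.9 (n = 3) and LT_HSC at 97.7 ± 44.2 (n = 2), and MEP was lowest at 23.2 CPM in 1 library. Ccng1 ranged from natural killer cells at 86.1 ± 33.9 (n = 2) and LT_HSC at 83.5 ± 11.4 (n = 2) down to MK at 5.73 ± 3.64 (n = 2) and the erythroblast gate EryB at 4.12 ± 3.04 (n = 2). Sesn2 was highest in macrophages at 7.44 CPM in 1 library and granulocytes at 6.59 ± 9.32 (n = 2), and had no count in 14 of 28 populations. Zmat3 was highest in MPP1 at 12.5 ± 4.25 (n = 2) and ESLAMSK at 11.5 ± 14.5 (n = 3). Eda2r counts came from 6 populations, and its highest mean, 5.07 CPM in ESLAM, rested on 36 counts in 1 cell of L15.

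**Figure D5:**
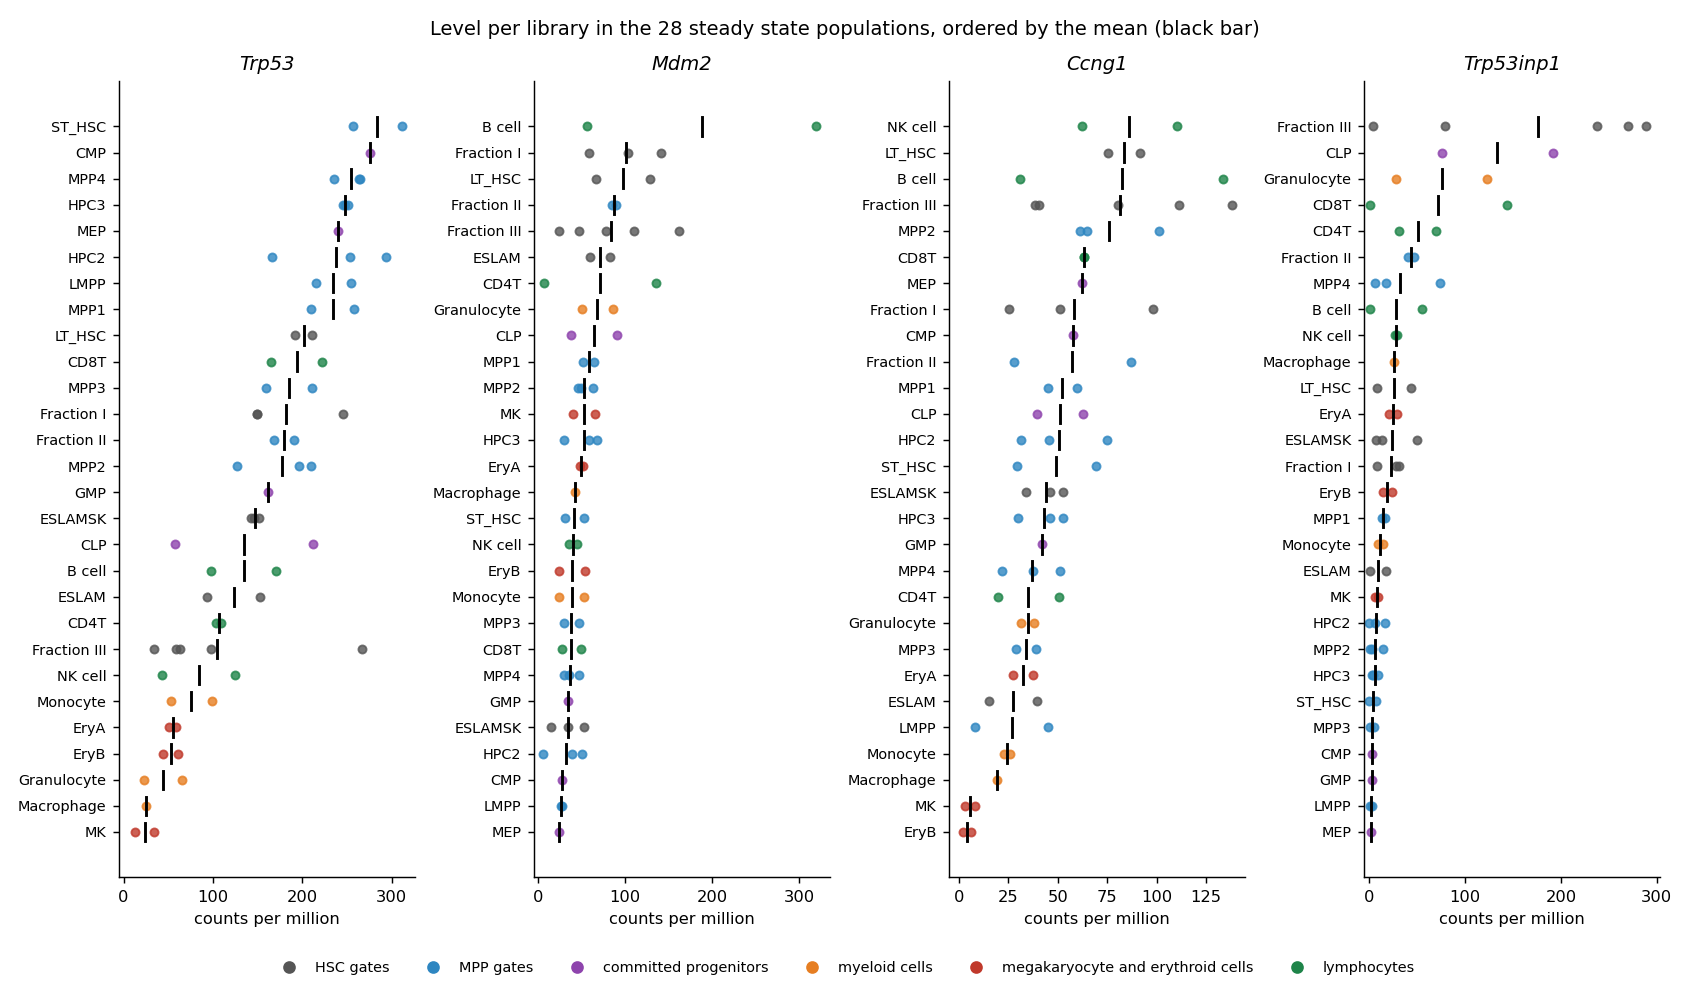
Level (CPM, x axis) of Trp53, Mdm2, Ccng1 and Trp53inp1 in each of the 28 sorted steady state populations (y axis, in order of the mean); points are libraries coloured by class and black bars their means. Trp53 is highest in several of the multipotent and committed progenitor gates (up to 284 CPM on average) and lowest in MK (23.6 CPM), while Trp53inp1 is highest in Fraction III (176 CPM).

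Other genes of the pathway were counted from fixed lists, here against iHSC. These counts stand beside shares of all genes tested that were called of 3.14%, 1.12%, 7.57% and 20.8% for days 1, 3, 5 and 7. Among 10 tested regulators of p53, no gene was called on days 1 and 3. Chek1, a checkpoint kinase (log2 2.33 ± 0.56 SE on day 5, edgeR adjusted p = 0.00631), and Hipk2, a kinase that phosphorylates p53 (2.69 ± 0.82, adjusted p = 0.0348), rose on day 5. Both were called on day 7 too, where Mdm4, the partner of Mdm2, fell (-0.98 ± 0.32, adjusted p = 0.0260), so that 3 of 10 were called beside 20.8% of all genes. The median of this list was -0.173 on day 1 and 0.153 on day 7, beside -0.258 and -0.101 over all genes tested.

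Of 9 arrest genes, 1, 1, 2 and 2 were called higher on days 1, 3, 5 and 7, and 1 and 3 were called lower on days 3 and 7. Over all genes tested, calls higher made up 2.34%, 1.01%, 4.28% and 10.4% for days 1, 3, 5 and 7, and calls lower 0.105% and 10.4% for days 3 and 7. Ckap2 rose on each day (2.85 ± 0.74 on day 1, edgeR adjusted p = 0.0222), and Ckap2 and Psrc1 encode proteins of the mitotic spindle. Btg2, an antiproliferative gene, fell on day 3 (-3.78 ± 0.96, adjusted p = 0.0366) and day 7 (-2.84 ± 0.53, adjusted p = 0.000154), and Plk2 (-5.05 ± 0.97) and Sesn1 (-1.79 ± 0.36) fell on day 7. Cdkn1a, which encodes the cell cycle inhibitor p21, was at 91.5 ± 45.9 CPM (SD, n = 3) on day 1 and 43.1 ± 46.9 (n = 12) in iHSC, a log2 change of 0.91 ± 0.76 (adjusted p = 0.565). Many cell cycle genes were called higher in the same comparisons. Of 16 G2 and M phase genes, 14 were called higher on day 1, 15 on days 3 and 5 and 16 on day 7. Of 15 S phase genes, 3, 4, 13 and 14 were called higher on days 1, 3, 5 and 7. Their part in the list counts was not tested.

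None of 12 apoptosis genes was called on days 1 and 3, where the list's medians were 0.840 and -0.149. Siva1 rose on day 5 (0.94 ± 0.30, edgeR adjusted p = 0.0433), and Siva1 (1.13 ± 0.27) and the nuclease gene Aen (1.37 ± 0.50, adjusted p = 0.0468) rose on day 7, which makes 2 of 12 beside 20.8% of all genes. Among 7 repair genes Polh, a translesion polymerase, rose on day 1 (6.92 ± 1.37, adjusted p = 0.00212) with 0.202 to 53.6 CPM in the 3 libraries against 0 to 0.708 CPM in iHSC, and again on day 7 (3.19 ± 1.09, adjusted p = 0.0318). Of 11 metabolic and secretory targets, Tigar rose on day 5 (3.12 ± 0.87, adjusted p = 0.0205) and, with Gls2 (4.11 ± 1.46), on day 7, where Ddit4 fell (-3.25 ± 0.93). Among 9 family members and paralogs none was called until day 7, when Phlda2 (-3.43 ± 0.66), Sesn1, Mdm4 and Zmat1 (-2.10 ± 0.73) fell, which makes 4 of 9 beside 10.4% of all genes called lower.

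The genes most like 3 members in level over the 35 library sums of the day comparison were named by Pearson's r of log2 values among 8186 genes, as a description without a test. All sums share the depth and batch of their library. For Trp53 they were Cuedc2 (r = 0.795), Nudc (0.784), Bnip3 (0.773), Bad (0.765) and Syce2 (0.761). For Mdm2 they were Spag9 (0.774), Nbeal2 (0.757), Snrk (0.697), Sbsn (0.695) and Ncoa1 (0.690). For Ccng1 they were Tmem219 (0.687), Os9 (0.683), Actr8 (0.619), Ankrd12 (0.598) and Kmt2e (0.596).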

How the data were processed

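The authors deposited one table of counts per gene and cell, and one annotation of cells. Per the submitters' processing notes, TopHat, HTSeq and mm10 were used, and versions are not given in the sources used here. Whether a count is a read or a molecule is not stated. The 8 members and all gene lists were chosen with earlier results of these data known.

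Of 2879 cells, 578 without annotation were left out, as were 120 transplanted cells of 3 libraries that pool days from the comparisons by day. Deposited counts were summed per library and group (at least 5 cells, cells per library 5 to 79 in the day groups) and scaled to a total of 1000000 (CPM). edgeR 4.0.16 in R 4.3.3 was used with filterByExpr, TMM scaling and the quasi-likelihood test, and Benjamini-Hochberg adjustment over all genes tested, with 0.05 as threshold. The fit by day held 35 sums and 13353 genes, and that of steady state classes 45 sums and 13199 genes. A standard error is the log2 change divided by the square root of F. The median log2 change of all genes was -0.258 on day 1 and -0.101 on day 7.

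Libraries were the replicates. Nothing in the labels ties them to animals, so p-values measure the spread between libraries, which may be technical. Percentages of cells detected were also computed after thinning to 20000 counts per cell (seed 11), and intervals for counts of 0 cover counting error only. All members, up to 4 genes per list and comparison with the smallest p, and the 5 most correlated genes are named. Alternatives used DESeq2 1.42.0, limma 3.58.1 and the choices listed in the closing section. Scripts in python 3.11.15 (numpy 2.4.6, pandas 2.3.3) and R were tested on simulated data.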

Additional observations from a re-analysis of the deposited data

Results flagged for a closer look

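Among 35 groups of 4 to 10 libraries, 8 had a library whose gap to the nearest other took an unusual part of the range by Dixon's ratio. The rate of about 1 in 20 groups by chance holds for normally distributed values, so it does not apply to these low counts. Where only 1 library held a count the ratio is 1 at any level, as for Sesn2 in L17 and L3 and Phlda3 in L16. Eda2r on day 5 was at 2.83 CPM in L71, with the next library at 0.436 CPM. Sesn2 on day 5 was at 7.59 CPM in L86 and at most 2.81 CPM elsewhere. Ccng1 on day 7 was lowest in L49, a sum of 5 cells, at 3.25 CPM against 27.3 CPM in the next library. Phlda3 on day 7 was highest in L59, at 11.2 CPM against 5.58 CPM. In steady state committed progenitors, Trp53 was lowest in L43, at 57.2 CPM against 212.5 CPM or more in the others, and Sesn2 was at 0.887 CPM in L17 and at 0 in the others. Sesn2 was found in 1 lymphocyte library, L3, at 0.246 CPM, and Phlda3 in 1 megakaryocyte and erythroid library, L16, at 0.296 CPM.

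The 3 transplanted libraries that pool days entered no comparison by day, and 2 of their 24 values lay above all 12 iHSC libraries. They were not left out of the comparisons of transplanted and steady state cells within tMPP1 and tMPP2. Sesn2 was at 12.3 CPM in L88, which pools days 1 and 3, against at most 6.16 CPM in iHSC. Phlda3 was at 8.63 CPM in L77, which pools days 5 and 7, against at most 2.998 CPM. No test was made of these values.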

How the results depend on the processing

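No paired analysis was possible because the labels give no replicate numbers shared between groups; libraries that hold several groups were kept as a random block with voom, as given here and in the report. Of the changes of single members under the alternatives, 1752 kept their direction and their side of the threshold, 38 lost a call, 33 gained one and 34 turned sign; the cause was not tested. Leaving out L4 and L49, and leaving out each steady state library in turn, were chosen after seeing the data.

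Counts of called genes moved by more than 1.5 times as follows. DESeq2 gave 673 genes on day 1 against iHSC, 265 on day 3, 1564 on day 5, 25 on day 3 against day 1, 19 on day 5 against day 3, 133 on day 7 against day 5, 1209 in committed progenitors, 2493 in myeloid cells, 179 within tMPP1, 303 within tMPP2 and 224 on day 7 against day 5 within tMPP2. Voom with a library block gave 103, 314 and 2200 on days 1, 3 and 5 against iHSC, 1 on day 3 against day 1, 515 on day 7 against day 5, 166 on day 7 against day 1, and 2245, 2220 and 1988 in multipotent gates, committed progenitors, and megakaryocyte and erythroid cells. Without a filter there were 1002 on day 1, 86 on day 7 against day 5, 1048 on day 7 against day 1, 1886 in multipotent gates, 130 within tMPP1, 258 within tMPP2 and 112 on day 7 against day 5 within tMPP2. At least 10 cells per sum gave 210 on day 7 against day 5, 71 on day 7 against day 1 and 31 within tMPP1, and at least 3 cells gave 32 within tMPP1 and 81 on day 7 against day 5 within tMPP2. Thinned cells gave 3 on day 5 against day 3, 100 on day 7 against day 5 and 166 on day 7 against day 1. Mean log values gave 2076 on day 5, 30 on day 3 against day 1, 6 on day 5 against day 3, 19 on day 7 against day 5 and 457 on day 7 against day 1. Transplanted tHSC and tMPP cells alone gave 222 on day 1 and 13 on day 7 against day 5. Without libraries of both origins there were 101 on day 7 against day 5 and 157 on day 7 against day 1. With only the compared groups in the fit there were 23, 15, 564 and 1592 on days 1, 3, 5 and 7 against iHSC, 99 on day 7 against day 5 and 88 on day 7 against day 1.

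Leaving out one library gave 229 (without L87) to 638 (without L84) genes on day 1, 25 to 95 on day 3, 0 to 2 on day 3 against day 1, 7 to 93 on day 7 against day 5, 127 (without L83) to 540 (without L84) on day 7 against day 1, 380 to 594 in committed progenitors, 701 to 1050 in myeloid cells, 1278 to 1500 in lymphocytes, 29 to 46 within tMPP1 and 15 to 84 on day 7 against day 5 within tMPP2. RLE scaling moved the median of all genes from -0.124 to -0.252 on day 5 and from -0.101 to -0.311 on day 7. Under it 471 of 1053 calls were higher on day 5 (572 of 1011 with TMM), 1055 of 2976 on day 7 (1394 of 2784), 26 of 357 on day 7 against day 1 (68 of 273), 439 of 1212 in multipotent gates (578 of 1120) and 383 of 644 in committed progenitors (555 of 795). No member turned sign under RLE scaling.

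The 34 turns of sign were of changes that were not called. On day 1 against iHSC, Mdm2 turned to -0.12 with voom, -0.76 with tHSC and tMPP cells alone and -0.58 without L87, Trp53inp1 to 0.91 and Zmat3 to -1.08 with at least 10 cells, Zmat3 to -0.92 without L83 (2.77 without L87) and Trp53 to -0.30 without L84 (0.29 without L87). For changes that turned when one library was left out, the other end of their range is in parentheses. On day 5 Mdm2 was 0.036 with mean log values and Trp53 -0.21 with bone marrow iHSC. On day 7 Phlda3 was -0.10 with voom, Sesn2 -0.027 with tHSC and tMPP cells alone, and Zmat3 1.09 and Trp53 -0.15 with bone marrow iHSC. Over the days averaged Mdm2 was 0.0020 with mean log values, Zmat3 -0.44 with at least 10 cells and Trp53 -0.18 with bone marrow iHSC. On day 3 against day 1 Zmat3 was 0.51 with at least 10 cells and 0.52 without L83 (-4.35 without L79). On day 7 against day 1 Zmat3 was 0.71 and 0.55 with the same settings (-3.10 without L87), Trp53 -0.30 with thinned cells and Mdm2 0.026 without L87 (-1.58 without L84). On day 5 against day 3 Trp53inp1 was 0.92 without L89 (-0.75 without L79), and on day 7 against day 5 Sesn2 was -1.74 with tHSC and tMPP cells alone. In committed progenitors Ccng1 was 0.54 and Trp53inp1 -1.51 with voom, and Trp53inp1 -0.89 without L43 (0.76 without L15). In megakaryocyte and erythroid cells Trp53inp1 was 0.50 and Sesn2 0.56 with voom, Mdm2 -0.32 with thinned cells, and Zmat3 -1.48 with at least 10 cells and -1.27 without L28 (1.24 without L42). Within tMPP2 Zmat3 was 0.57 with at least 3 cells, and on day 7 against day 5 Phlda3 was -0.997 without L63 (1.06 without L47).

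Day 1 rests on 3 libraries of 9, 39 and 13 cells, and Phlda3, Sesn2, Zmat3 and Eda2r on few cells in any group, which limits what can be detected for them.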
